A study of Homo sapiens with 4 samples.

Results

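The genes described here are the 3 TGF beta ligands (TGFB1, TGFB2 and TGFB3) and the 3 TGF beta receptors (TGFBR1, TGFBR2 and TGFBR3), as seen in Hi-C contact maps of human fibroblasts. Each gene was placed in the bin of about 200 kb that holds its annotated start on the hg19 build (GRCh37), and 5 bins on each side were added, which gives a window of 11 bins and about 2.2 Mb. The 6 windows hold 66 of the 13567 bins that passed a minimum of 50% of their pairs listed in every map, out of 14310 bins on the autosomes and X. No bin of the 6 windows was lost to that minimum. The choice of the genes used no contact value, but it was made with earlier results of these data known.

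TGF beta ligands are secreted in a latent form and, once released, bring together type II and type I receptor kinases, which phosphorylate SMAD proteins that regulate genes in the nucleus. In fibroblasts the pathway is known for driving collagen and matrix production and for slowing proliferation, and it is part of the signalling between senescent cells and their neighbours. Chromatin contacts fall into an A compartment, rich in active genes, and a B compartment, mostly inactive and often at the nuclear lamina, so a gene's contacts describe the kind of chromatin it lies in and say nothing directly about its expression.

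The cells were IMR90, a line of normal human lung fibroblasts kept at 5% O2, carrying ER:HRAS G12V from a pLNCX2 retroviral vector, an oncogenic RAS that 4OHT switches on. Grow cells received no 4OHT, and in OIS (oncogene-induced senescence) cells RAS was active after 100 nM 4OHT for 6 days. Grow-shA1 and OIS-shA1 cells also carried 1 hairpin against the architectural protein HMGA1 (pMSCV miR shHMGA1), for which the methods do not exclude off-targets. The 2 samples of each shA1 condition were deposited as 1 pooled map, whereas Grow and OIS had been mapped earlier, in a data set that the laboratory had already released, so there was 1 map per condition, no replicate spread and no test. The 2 comparisons of OIS with Grow lie within a data set. Those of shA1 with no shA1 also set 1 data set against the other, and hairpin and data set cannot be told apart. The share of possible pairs listed in the windows was 80.7% to 97.0% in Grow and 68.6% to 88.2% in OIS-shA1. The paper reports more reads for Grow-shA1 than for OIS-shA1, so the RAS comparison with shA1 also sets a deeper map against a shallower one. The ± values below are SDs over the 11 bins of a window, which are neighbours and not replicates.

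Every bin begins and ends at a cut of HindIII, the enzyme used to digest the chromatin. An edge of 3 start bins is shown as an example of a step of the compartment score in Grow. Such steps are not limited to these edges: at the right edge of the TGFB1 bin the score went from 0.28 to -1.09 in Grow. Each run is the plus strand of GRCh37 with the HindIII site in capitals. The first closes the TGFB2 bin inside an intron of TGFB2, where a bin near the border of A and B meets an A bin (chr1:218604637-218604666). The next opens the TGFB3 bin in introns of TTLL5 and IFT43, with A chromatin to its left and B to its right in Grow (chr14:76399985-76400014). The last closes the TGFBR2 bin in an intron of GADL1, where A chromatin met B chromatin in Grow (chr3:30799552-30799581).
TGFB2 right edge: ttaaaagagaaaAAGCTTcagagtctcttt
TGFB3 left edge: ttctttccacttAAGCTTctctaaaggctg
TGFBR2 right edge: agcttgccccaaAAGCTTcatagctttcat
All 14287 inner bin edges of these chromosomes lay at such a site. The start of TGFBR2 lies on the shortest HindIII fragment of the 6 (4.01 kb) and that of TGFB3 on the longest (14.6 kb). The start bin of TGFB3 holds 41 sites, a density at the 7.71st percentile of its chromosome's bins, whereas that of TGFBR2 holds 73 sites, at the 86.5th percentile.

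The surroundings of the genes differed widely. The TGFB1 bin (chr19:41803202-42000147) is the most crowded, with 10 protein-coding starts and 72 in its window. The TGFBR2 window (start bin chr3:30599918-30799564) has 3 in all, and the TGFB2 window (start bin chr1:218397580-218604649) has 5. TGFB3 (chr14:76399998-76599207), TGFBR2 and TGFBR3 (chr1:92200895-92399470) are the only protein-coding starts of their bins, and TGFBR1 (chr9:101800878-102000681) shares its bin with ALG2 and SEC61B. The window GC content ran from 37.7% for TGFB2 to 50.03% for TGFB1.

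A compartment score was computed as the first principal component of each chromosome's contact correlations, with positive values for A. In Grow, 43 of the 66 window bins and 5 of the 6 start bins were A, beside 42.0% of all bins and 56.4% of bins with a protein-coding start. With RAS, 8 window bins turned from B to A, beside 8.9% of all bins. None turned from A to B, beside 111 of all 13567 bins. With RAS and shA1, 9 turned from B to A, beside 7.81% of all bins, and none from A to B, beside 177 of 13567. Turns from A to B were thus rare in all bins too. The bins turned to A were 8 of 23 and 9 of 23 that had been B, against 15.4% and 13.5% of all B bins. They lay around TGFB2, TGFB3 and TGFBR2, and none lay around TGFB1, TGFBR1 or TGFBR3. Between OIS and OIS-shA1 a single window bin turned from B to A, beside 1.47% of all bins, and between Grow and Grow-shA1 none did, beside 1.64%. No window bin turned from A to B in these 2 comparisons, beside 417 and 225 of all 13567 bins. Of the 6 windows, 5 held both A and B bins in Grow, as did 75.002% of all complete windows.

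**Figure D1:**
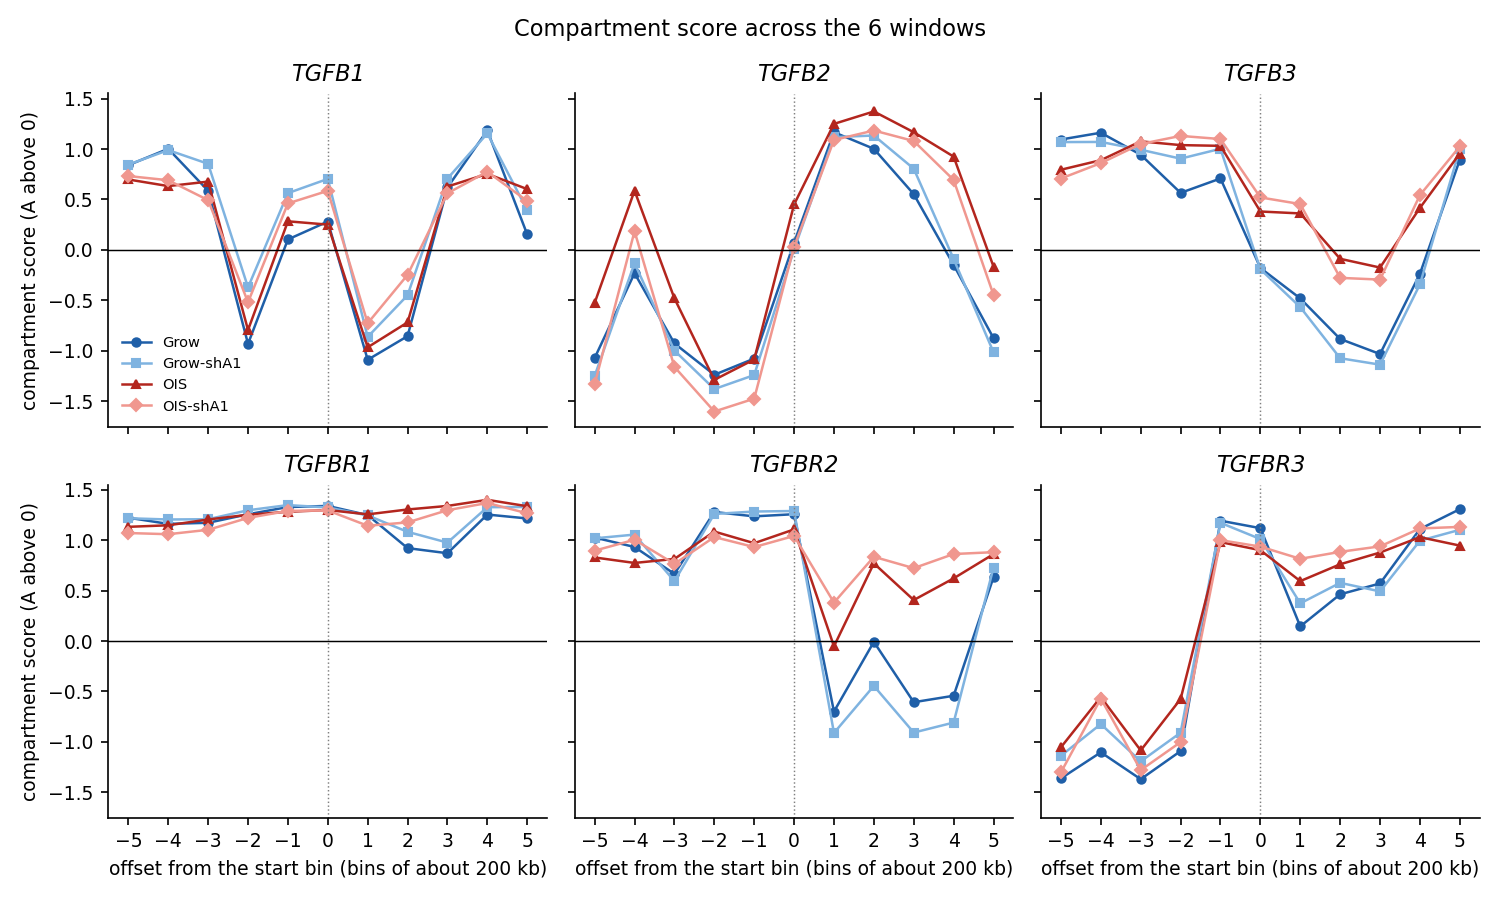
Compartment score (vertical axis, A above 0) of the 11 bins around the start bin of each gene (horizontal axis, offset in bins of about 200 kb), with 1 line per map. The TGFBR1 window stays above 0.87 throughout in Grow, and the bins right of TGFB3 and TGFBR2 rise towards or above 0 in both RAS maps.

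TGFB1, the ligand best known for fibrosis and growth arrest, lay in mixed chromatin on chromosome 19. Its start bin scored 0.28 in Grow, 0.70 in Grow-shA1, 0.25 in OIS and 0.59 in OIS-shA1, so the shA1 maps were the higher pair and the RAS maps were not set apart. The bins 2 to the left and 1 and 2 to the right were B in all 4 maps, and the same 8 bins were A in each. When the component was taken per chromosome arm, the start bin scored 0.025 in Grow and 0.0011 in OIS, next to the border.

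TGFB2, a ligand that depends on a co-receptor for strong binding, stood at a compartment border. Its start bin scored 0.071 in Grow, 0.0057 in Grow-shA1, 0.45 in OIS and 0.032 in OIS-shA1, so OIS was the only map clearly above 0. Per arm it scored -0.14, -0.048, 0.46 and -0.010 in the same order, so the call of A held in OIS alone and was lost in the other maps. The gene body runs across the right edge printed above into a bin that scored 1.17, 1.12, 1.25 and 1.09 in the same order, A in each map. The bins 4 to the left and 4 to the right turned from B to A with RAS, from -0.23 to 0.59 and from -0.15 to 0.93. With shA1 the same bins went from -0.13 to 0.18 and from -0.090 to 0.69, the same direction by smaller steps.

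TGFB3, a ligand known from wound repair and palate fusion, was the only one of the 6 genes whose start bin changed compartment when the component was taken per chromosome; per arm the start bin of TGFB2 also went from B to A between Grow and OIS. It scored -0.18 in Grow and -0.19 in Grow-shA1 but 0.38 in OIS and 0.52 in OIS-shA1, so the RAS maps stood apart from the others with and without the hairpin. The next bin to the right went from -0.48 to 0.36, and the bin 4 to the right from -0.24 to 0.42. Between these, the bins 2 and 3 to the right rose from -0.88 to -0.089 and from -1.03 to -0.18 and stayed B. The 5 bins to the left were A in all maps.

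TGFBR1, the type I receptor kinase that phosphorylates SMAD2 and SMAD3, lay deep in the A compartment. All 11 bins were A in the 4 maps, and the start bin scored 1.34 in Grow, 1.32 in Grow-shA1, 1.30 in OIS and 1.30 in OIS-shA1, values from the 97.8th to the 99.2nd percentile of chromosome 9. The lowest bins of the window, 2 and 3 to the right, went from 0.92 to 1.31 and from 0.87 to 1.34 with RAS.

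TGFBR2, the type II receptor that binds ligand first, lay at the right end of an A stretch. Its start bin scored 1.26 in Grow, 1.29 in Grow-shA1, 1.11 in OIS and 1.04 in OIS-shA1, A in every map and slightly lower in the RAS maps. Across the HindIII site printed above, the next bin scored -0.70 in Grow, -0.91 in Grow-shA1, -0.052 in OIS and 0.38 in OIS-shA1. The difference between these neighbours was therefore largest in Grow-shA1 and smallest in OIS-shA1. The 4 bins right of the start bin were all B in Grow and in Grow-shA1, although the one 2 to the right lay at the border in Grow (-0.0077). Of these, 3 turned to A in OIS and all 4 in OIS-shA1, which included the single window bin that differed in compartment between OIS and OIS-shA1.

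TGFBR3, betaglycan, the co-receptor that presents TGFB2 to the receptor kinases, lay beside a sharp border that did not move. The 4 bins furthest left were B and the other 7 were A in all 4 maps. Its start bin scored 1.12 in Grow, 1.01 in Grow-shA1, 0.90 in OIS and 0.94 in OIS-shA1. The bin next to it on the right scored lowest of the A bins in Grow, at 0.15, and 0.59 in OIS.

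The second readout was distal contact, the mean score of a bin with A bins or with B bins over 2 Mb away, with A and B taken from Grow for every map. The difference between them is called the distal preference, and a window change of at least 0.2 score units was counted. From Grow to OIS the preference for A rose in the window mean of all 6 genes, by at least 0.2 in 2 of 6, beside 21.1% of all windows. The median change was 0.18 over the 6 windows and 0.033 over all windows, of which 55.9% were higher. With shA1, OIS was higher in 5 of 6 windows and by at least 0.2 in 2 of 6, beside 20.4% of all windows, and the medians were 0.070 and 0.031. The genes past 0.2 were TGFB2 and TGFB3 without shA1 and TGFB3 and TGFBR2 with it. Counts of 2 of 6 stand close to the background shares.

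**Figure D2:**
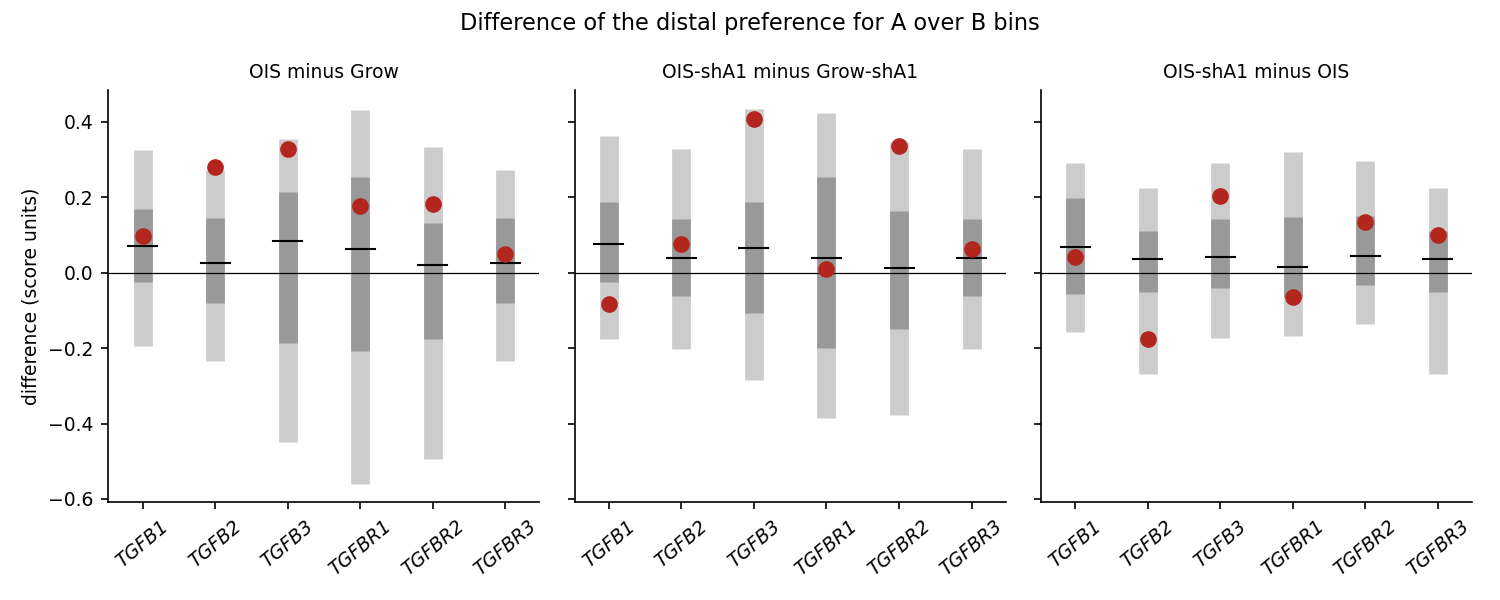
Change of the distal preference for A over B bins (vertical axis, score units) of each gene's window (points) in 3 comparisons, over the range of all windows of the same chromosome (dark grey, 25th to 75th percentile; light grey, 5th to 95th; line, median). TGFB3 lies high in all 3 panels, and TGFB2 is high in OIS minus Grow but low in OIS-shA1 minus OIS.

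For the TGFB3 window the preference was 0.11 ± 0.80 in Grow, 0.24 ± 0.92 in Grow-shA1, 0.44 ± 0.71 in OIS and 0.64 ± 0.73 in OIS-shA1. Both RAS maps were above both Grow maps. The change with RAS was 0.33 ± 0.13 without shA1 and 0.41 ± 0.21 with it, positive in 11 of 11 bins in each and at the 91.6th and 94.2nd percentiles of chromosome 14. Without shA1 it came mainly from contact with B, which fell by 0.28 in the window mean while contact with A changed by 0.053. With shA1 contact with B fell by 0.24 and contact with A rose by 0.17. OIS-shA1 also exceeded OIS by 0.20 ± 0.11, the only one of the 6 windows past 0.2 in that comparison, beside 15.9% of all windows.

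For the TGFB2 window the preference was -0.39 ± 0.61 in Grow, -0.37 ± 0.72 in Grow-shA1, -0.11 ± 0.58 in OIS and -0.29 ± 0.68 in OIS-shA1. OIS stood above the other 3 maps. The change with RAS was 0.28 ± 0.20, positive in 11 of 11 bins and at the 96.1st percentile of chromosome 1, and 0.076 ± 0.21 with shA1, positive in 7 bins and at the 60.3rd percentile. Contact with B bins fell by 0.25 and by 0.18, whereas contact with A bins changed by 0.031 without and -0.10 with shA1. From OIS to OIS-shA1 the preference was lower in all 11 bins, with a mean of -0.18 ± 0.16.

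For the TGFBR2 window the preference was 0.29 ± 0.58 in Grow, 0.27 ± 0.64 in Grow-shA1, 0.47 ± 0.45 in OIS and 0.60 ± 0.32 in OIS-shA1. The change with RAS was 0.18 ± 0.20 without shA1 and 0.33 ± 0.38 with it, at the 81.9th and 94.1st percentiles of chromosome 3. The bins of the window were uneven: the start bin changed by -0.00041 and by 0.032, and the highest bins by 0.46 and 0.97. The rise therefore belonged to neighbours of TGFBR2 and not to the bin of its start. This was not particular to TGFBR2, since only 3 of 6 start bins were higher in OIS than in Grow. The start bin of TGFBR1 went from 1.14 to 1.13 and that of TGFBR3 from 0.69 to 0.60.

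TGFBR1 had the highest preference of the 6 in every map, 0.97 ± 0.36 in Grow, 1.07 ± 0.33 in Grow-shA1, 1.14 ± 0.17 in OIS and 1.08 ± 0.20 in OIS-shA1, which is at or above the 98.1st percentile of chromosome 9. With RAS its contact with A bins rose in 11 of 11 bins in both comparisons, by 0.14 ± 0.083 and by 0.14 ± 0.060. Its contact with B bins changed by -0.033 ± 0.23 without shA1 and by 0.13 ± 0.16 with it, so the preference changed by 0.18 ± 0.26 and by 0.0083 ± 0.16.

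TGFB1 and TGFBR3 changed least with RAS alone. The TGFB1 preference was -0.0020 ± 0.62 in Grow, 0.22 ± 0.55 in Grow-shA1, 0.096 ± 0.74 in OIS and 0.14 ± 0.48 in OIS-shA1. Grow-shA1 was the highest map, 0.22 ± 0.16 above Grow and at the 97.0th percentile of chromosome 19, the only one of the 6 windows past 0.2 in that comparison, beside 2.31% of all windows. The TGFBR3 preference was -0.014 ± 0.73, 0.072 ± 0.78, 0.035 ± 0.76 and 0.13 ± 0.76 in the same order. It changed by 0.049 ± 0.12 with RAS, higher in 5 of 11 bins, and by 0.063 ± 0.17 with RAS and shA1, higher in 7. OIS-shA1 was 0.0998 ± 0.081 above OIS, higher in 10 of 11 bins, and Grow-shA1 0.085 ± 0.067 above Grow, higher in 9.

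The third readout was local contact, the mean score of a bin with bins up to 2 Mb away. TGFB3 had the lowest window mean of the 6 in every map, and the highest was that of TGFB2 in the Grow maps and of TGFBR2 in the RAS maps. From Grow to OIS, 2 of 6 windows fell by at least 0.2, beside 39.8% of all windows, and 1 of 6 rose by at least 0.2, beside 9.61%. With shA1, 1 of 6 fell by that much, beside 26.3% of all windows. Local contact fell in most windows of the genome, with a median of -0.12 without and -0.092 with shA1, so a rise stands against the general direction and a fall does not.

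**Figure D3:**
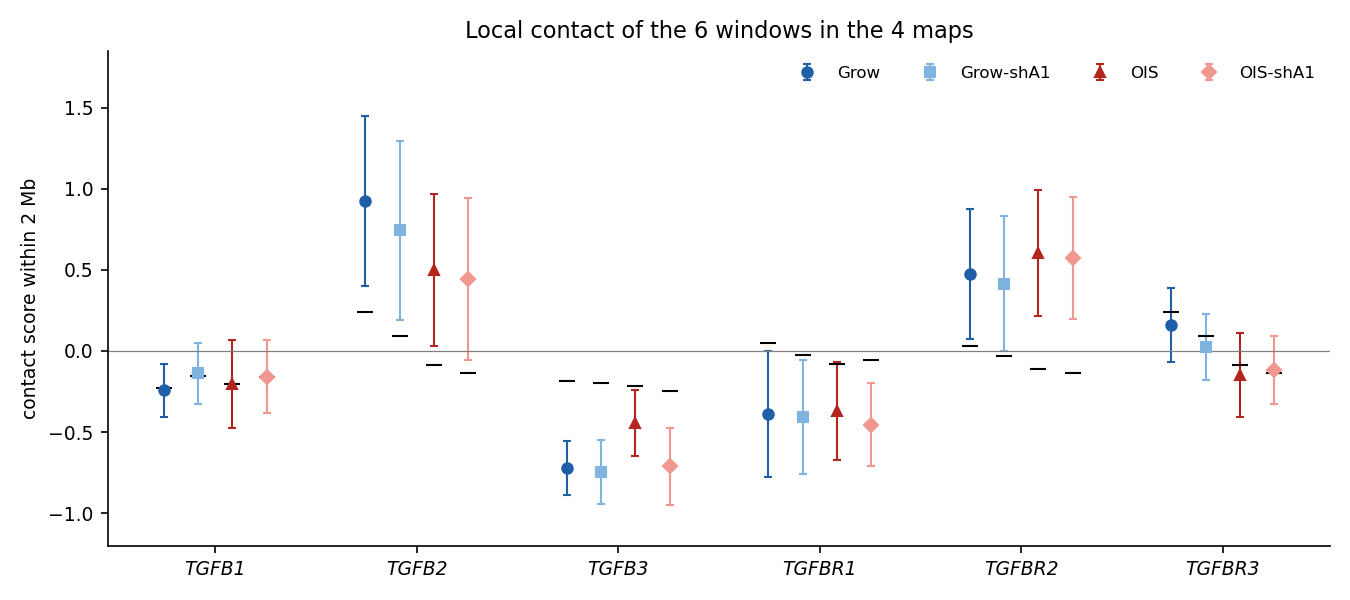
Mean local contact score within 2 Mb (vertical axis) of the 6 windows in the 4 maps; bars are SDs over the 11 bins of a window and short black lines the median window of the same chromosome. TGFB2 and TGFBR3 fall together with the median of chromosome 1, while the OIS value of TGFB3 stands above its other 3.

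Local contact was higher in OIS than in Grow in 4 of 6 windows, beside 33.4% of all windows. TGFB3 was the only one of these past 0.2. Its window mean was -0.72 ± 0.17 in Grow, -0.75 ± 0.20 in Grow-shA1, -0.45 ± 0.20 in OIS and -0.71 ± 0.24 in OIS-shA1, so OIS was the highest map and OIS-shA1 lay next to the Grow maps. The change was 0.28 ± 0.11 without shA1, at the 92.1st percentile of chromosome 14, and 0.035 ± 0.069 with it, at the 81.2nd percentile. With each distance centred on its mean in the map, these changes were 0.39 and 0.12, so the rise with shA1 was larger in that setting. The start bin itself went from -0.71 to -0.24, a rise of 0.47 at the 99.1st percentile, and from -0.67 to -0.50 with shA1, at the 92nd percentile. OIS-shA1 was 0.27 below OIS in the window mean, lower in all 11 bins and at the 4.86th percentile, the only one of the 6 windows past 0.2 in that direction, beside 15.1% of all windows. OIS-shA1 thus had the same compartment call as OIS at the TGFB3 start bin, a higher window preference for A and a lower local contact.

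TGFB2 and TGFBR3 share chromosome 1, where the median window was -0.32 from Grow to OIS and -0.18 from Grow-shA1 to OIS-shA1. The TGFB2 window went from 0.92 ± 0.52 to 0.50 ± 0.47 and, with shA1, from 0.74 ± 0.55 to 0.44 ± 0.50. The TGFBR3 window went from 0.16 ± 0.23 to -0.15 ± 0.26 and, with shA1, from 0.022 ± 0.20 to -0.12 ± 0.21. All 11 bins of each window were lower in both comparisons. The TGFB2 changes were at the 29.1st and 19.2nd percentiles of the chromosome and the TGFBR3 changes at the 52.7th and 63.5th, so neither window stood apart from its chromosome. With each distance centred on its mean in the map, the changes from Grow to OIS were -0.087 for TGFB2 and 0.033 for TGFBR3, the second with its direction turned.

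TGFBR2 had window means of 0.47 ± 0.40 in Grow, 0.42 ± 0.41 in Grow-shA1, 0.60 ± 0.39 in OIS and 0.57 ± 0.38 in OIS-shA1. Both RAS maps were the higher of their pair, by 0.13 ± 0.11 and 0.16 ± 0.10, in 9 and in 11 of 11 bins, while the median of chromosome 3 changed by -0.12 and -0.092. The TGFBR1 changes were 0.016 ± 0.17 and -0.048 ± 0.16, and those of TGFB1 0.037 ± 0.11 and -0.020 ± 0.10, all smaller than the SD of the change over the bins. With each distance centred on its mean, the TGFBR2 changes were 0.29 and 0.26.

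Inside a window there are 55 pairs of bins. Local contact also uses pairs that reach out of the window, so the inside pairs show only a part of it. Around TGFB3, 54 of 55 pairs rose from Grow to OIS, by 0.46 ± 0.23 (SD over pairs), and with shA1 42 pairs rose, by 0.20 ± 0.29. The pairs of 2 bins that were B in Grow rose most, by 0.64 ± 0.21 and, with shA1, by 0.37 ± 0.17 (10 of 10 pairs in each). Around TGFBR1, 49 of 55 pairs rose without shA1 and 37 with it, by 0.24 ± 0.18 and 0.11 ± 0.21. Its local contact nevertheless changed by only 0.016 and -0.048. Pairs of its window bins between 1 and 2 Mb changed by -0.12 and -0.13. Around TGFB2 only 1 of 55 pairs rose and the mean changed by -0.58 ± 0.35, with 12 pairs and -0.40 ± 0.39 under shA1. Around TGFBR3 likewise 1 of 55 pairs rose, with a mean of -0.38 ± 0.22, and 10 pairs with -0.17 ± 0.20 under shA1.

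The TGFBR2 window changed by position. The 28 pairs that joined an A with a B bin of Grow averaged 0.16 in Grow, 0.057 in Grow-shA1, 0.38 in OIS and 0.40 in OIS-shA1. They rose by 0.22 ± 0.27 without shA1 (22 pairs higher) and by 0.35 ± 0.36 with it (23 pairs higher). The 21 pairs of A with A changed by 0.075 ± 0.21 and 0.069 ± 0.23. The 10 pairs left of the start bin changed by -0.065 ± 0.11 and -0.076 ± 0.14. Across the HindIII edge shown above, the 6 pairs with the bin next to it changed by -0.043 ± 0.29 and -0.057 ± 0.19, with 2 of 6 higher in each comparison. The 24 pairs with the bins further right rose by 0.30 ± 0.22 (22 higher) and 0.39 ± 0.26 (23 higher). Among pairs across the edge, the rise therefore lay beyond the bin next to it. The 10 pairs with both bins right of the start bin rose by 0.14 ± 0.19 (7 higher) and 0.41 ± 0.32 (9 higher). These include pairs of the bin next to the edge. In the TGFB1 window 31 of 55 pairs were higher in OIS than in Grow and the mean changed by -0.0024 ± 0.38.

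**Figure D4:**
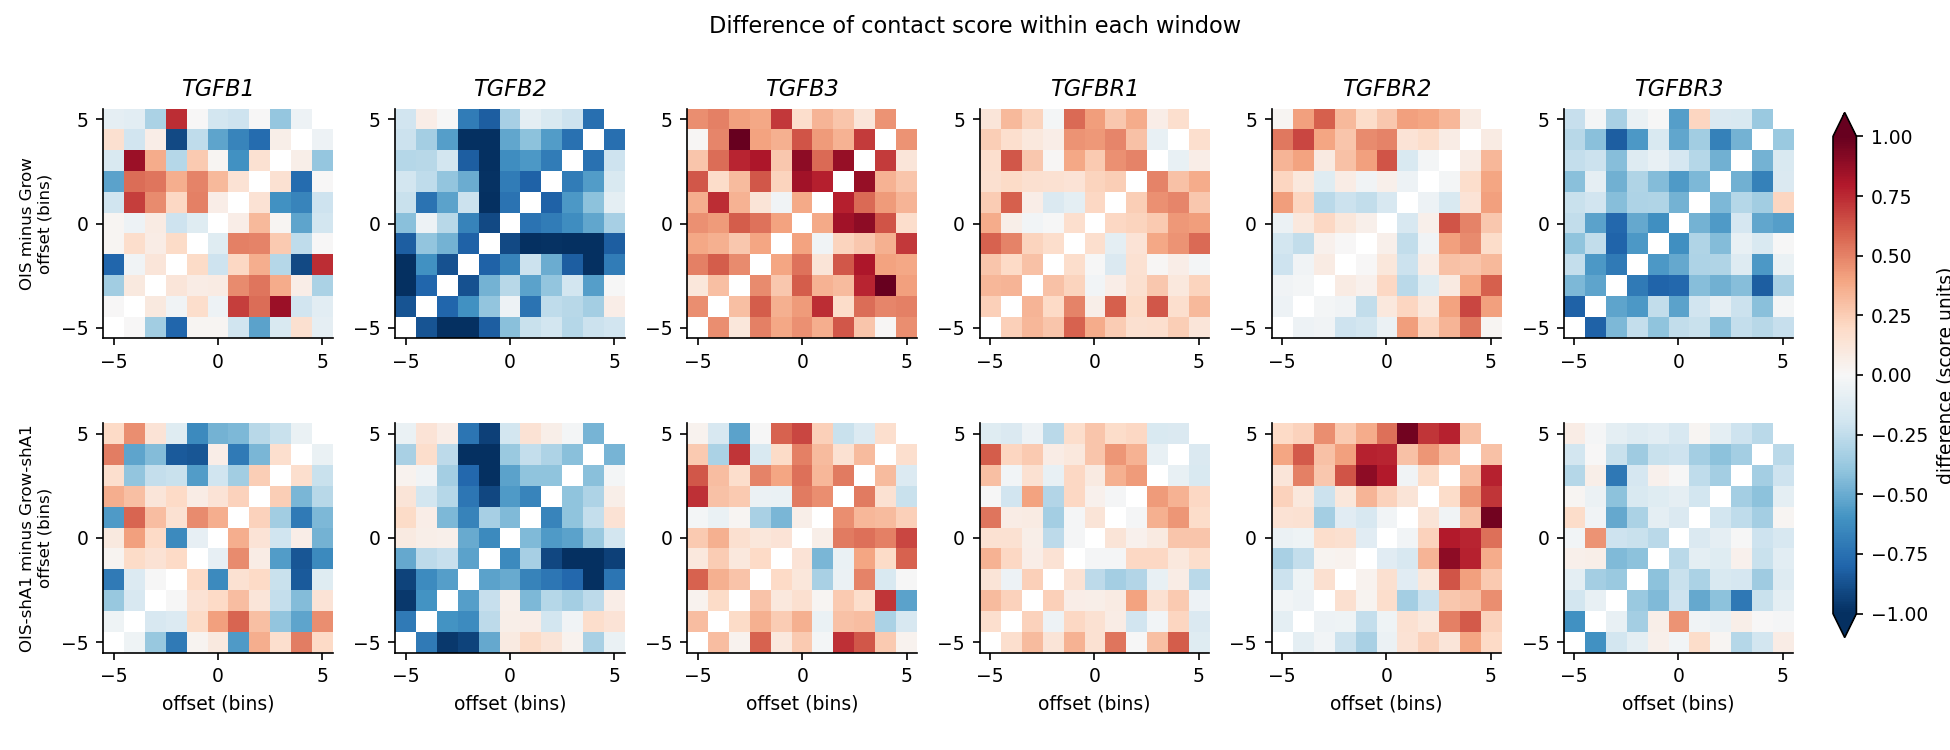
Difference of contact score for each pair of bins in the 6 windows (both axes, offset from the start bin in bins of about 200 kb), OIS minus Grow above and OIS-shA1 minus Grow-shA1 below; red is a rise, blue a fall, and colours saturate at a difference of 1 in either direction. TGFB3 is red in 54 of 55 pairs in the upper row, TGFB2 and TGFBR3 are blue in 54 of 55, and in TGFBR2 24 of the 30 pairs across the right edge of the start bin are red in the upper row. Pairs of other windows were not counted.

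With distance, the direction changed within a gene. For TGFB3 the change from Grow to OIS was 0.45 up to 0.5 Mb and 0.17 between 1 and 2 Mb, and -0.31 between 5 and 10 Mb. With shA1 it was 0.20, -0.064 and -0.36 over the same classes. TGFBR2 rose by 0.20 and 0.18 between 1 and 2 Mb and fell between 2 and 5 Mb, by 0.22 without and 0.47 with shA1. TGFB2 and TGFBR3 fell most at the shortest distances. Other windows were not read in these classes, so the falls have no chromosome value at the same distance beside them. With each distance centred on its mean, local contact from Grow to OIS changed by -0.087 for TGFB2 and 0.033 for TGFBR3. The scores were already corrected for distance when deposited, so these classes describe departures from that correction.

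**Figure D5:**
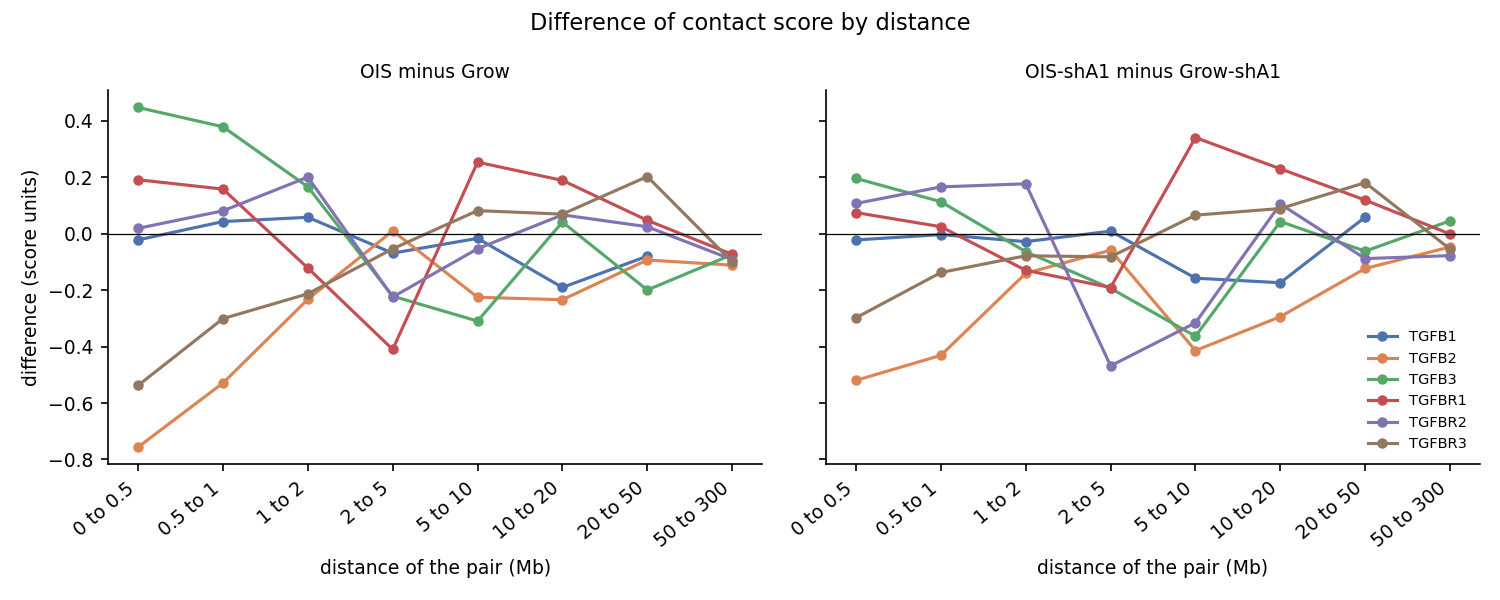
Mean difference of contact score of each gene's window (vertical axis, score units) in classes of distance (horizontal axis, Mb), OIS minus Grow on the left and OIS-shA1 minus Grow-shA1 on the right; classes with at least 20 pairs are drawn. TGFB3 goes from 0.45 at the shortest distances to -0.31 between 5 and 10 Mb in OIS minus Grow, and TGFB2 and TGFBR3 are lowest at the shortest distances. Other windows of the chromosomes are not drawn.

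At long range, each window was set against every block of 5 bins on its chromosome with at least 80% of the pairs listed in all maps. The blocks with the largest changes from Grow to OIS are given as a description. They were chosen by that change alone, which favours a larger value there than in the comparison with shA1. A smaller or turned change with shA1 is therefore not read as a difference. The TGFB3 window lost most contact with the block of STON2 and SEL1L (chr14:81797501-82800110, 0 of 5 bins A), from -0.49 to -1.33, and with shA1 from -0.37 to -1.18. It gained most with the block of the SERPINA genes (chr14:94801440-95795556, also 0 of 5), from 0.20 to 0.79, but with shA1 from -0.021 to 0.19. The TGFB2 window gained with the block of FASLG and TNFSF4 (chr1:172599983-173603144, 5 of 5 bins A), from -0.098 to 0.56, and with shA1 from -0.10 to 0.096.

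The TGFBR2 window lost most with the block of LRRC3B (chr3:25996053-26999961, 0 of 5 bins A), from -0.91 to -1.68, and with shA1 from -0.85 to -1.76. It gained most with the block of RFTN1 and PLCL2 (chr3:16001331-16999748), from 0.13 to 0.75, and with shA1 from -0.0024 to 0.56. The TGFBR1 window gained most with the block of PTPN3 and PALM2AKAP2 (chr9:111801374-112801352), from 0.16 to 0.89, and with shA1 from 0.28 to 1.03. The TGFBR3 window gained most with the block of IL12RB2 and SERBP1 (chr1:66999576-68001173), from 0.14 to 0.68, and with shA1 from -0.055 to 0.39. The largest fall of the TGFB2 window was with the block of ACTN2 and RYR2 (chr1:236600530-237599619, 0 of 5 bins A), from 0.98 to 0.0035, and with shA1 from 0.94 to 0.36. For TGFB1 only 11 blocks could be compared, and their largest changes were 0.24 and -0.21, with 0.13 and 0.090 for the same blocks under shA1. This fall of TGFB1 was the only one among the largest rises and falls of the 6 windows that turned direction with shA1.

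Of other pathway genes on the same chromosomes, LTBP4 and LTBP2 encode proteins that store latent TGF beta in the matrix, and BMP4 is a related ligand. The LTBP4 bin, 0.807 Mb from the TGFB1 start bin, is itself 1 of the 11 bins of the TGFB1 window. Its mean contact over its 10 pairs in that window, direct neighbours included, scored 0.23 in Grow, 0.36 in Grow-shA1, 0.43 in OIS and 0.43 in OIS-shA1. Its single pair with the TGFB1 start bin scored 0.83, 0.76, 0.78 and 1.17 in the same order. The contact of the TGFB3 window with LTBP2, 1.4 Mb away, was strongly depleted, at -1.68, -1.64, -1.49 and -1.73 in the same order. In Grow this was the 4.04th percentile for its distance. TGFB3 with BMP4, 22.0 Mb away, scored -0.34, -0.28, -0.40 and 0.15, so OIS-shA1 stood apart, 0.55 above OIS and at the 97.2nd percentile of blocks at that distance. TGFBR3 with ZFYVE9, a SMAD anchor 39.6 Mb away, scored 0.20, 0.063, 0.27 and 0.091. TGFB2 and TGFBR3 are 126 Mb apart, and only 20 of 121 pairs between their windows were listed in all 4 maps, too few to compare. For TGFB2 with ZFYVE9 and TGFBR2 with SKIL, a SMAD co-repressor, 2 and 8 of 11 pairs were listed. The bins of GDF15, SKI and ENG did not pass the minimum.

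A list of 38 other genes of the pathway was read at the start bin alone, and 33 of the genes lay in bins that passed the minimum. These are 32 bins, since ACVRL1 and ACVR1B share one. In Grow 30 of the 32 were A and in OIS 31, beside the 56.4% and 66.5% of all bins with a protein-coding start. From Grow to OIS the preference for A was higher in 18 of 32, beside 53.9% of all bins. It was higher by at least 0.2 in 7 of 32, beside 27.5% of all bins, and lower by at least 0.2 in 1, beside 25.2%. The highest changes were those of TGIF1 (0.44), a co-repressor, and ACVR1 (0.39), a type I receptor for related ligands, and the lowest those of LTBP4 (-0.21) and COL1A2 (-0.18), a collagen target. The 6 start bins read the same way were higher in 3 of 6. Their median was 0.039, against 0.026 for the list and 0.029 for all bins.

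Bins with the most similar set of 12 values (local contact and distal contact with A and with B in the 4 maps) on the same chromosome, over 2 Mb away and with a protein-coding start, were those of PAK4 for TGFB1, KCTD3 for TGFB2, SLC10A1 for TGFB3, BNC2 for TGFBR1, BDH1 for TGFBR2 and DHX9 for TGFBR3. The Euclidean distances ran from 0.35 for TGFB1 to 0.55 for TGFB3, beside medians of 1.7 to 2.8 over the bins compared.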

How the data were processed

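The deposited maps hold, for each pair of bins on a chromosome, a distance-corrected contact score made by the authors: reads were aligned to hg19 with HiC-Pro, replicates were pooled, and counts were normalised by ICE and for distance. The log base of the score and the number of reads behind a value are not given in the sources used here, so no counting error could be set. Bins of about 200 kb come from the deposited bin list, whose chromosome ends match GRCh37; genes are from GENCODE lifted to GRCh37. Bins needed 50% of their pairs listed in each of the 4 maps, and means used pairs listed in all 4. Compartments were the first principal component of the correlation matrix, with unlisted pairs at 0, oriented by gene count. A percentile is the share of windows (or bins) of the same chromosome below a value. Named genes were the 6 members, pathway genes on their chromosomes or with the 2 highest and lowest preference changes, 1 most similar bin each, and genes in the blocks of largest change. The members and lists were chosen with earlier results of these data known. Python 3.11.15, numpy 2.4.6 and pandas 2.3.3 were used, and the steps were tested on simulated data. The alternatives covered distance limits, unlisted pairs, scaling, centring, compartment calls and window size.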

Additional observations from a re-analysis of the deposited data

Results flagged for a closer look

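In 3 cases the change with RAS went one way without shA1 and the other way with it, by at least 0.1 in all; with 1 map per condition none of these differences was tested. The distal preference of the TGFB1 window changed by 0.098 without shA1 and by -0.083 with it. The contact of the TGFB2 window with distal A bins changed by 0.031 without shA1 and by -0.10 with it. The contact of the TGFBR1 window with distal B bins changed by -0.033 without shA1 and by 0.13 with it. Each TGFB1 change kept its direction in 13 of 13 alternatives. Those of TGFB2 did so in 11 of 13 without shA1 and in 13 of 13 with it. The TGFBR1 change without shA1 kept its direction in 8 of 13, with values from -0.44 to 0.12. With shA1 the TGFBR1 change did so in 11 of 13, with values from -0.17 to 0.24. The shA1 maps and the others come from different data sets, so hairpin and data set cannot be told apart here.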

How the results depend on the processing

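Of 120 window results, 17 were of 0.2 or more. They were picked by size, which favours a kept direction. They include the RAS change with shA1 minus that without it, for TGFB3 local contact (-0.24) and TGFB2 preference (-0.20). Of the 17, 16 kept their direction under every alternative run (8 for local contact, 13 for distal contact). The exception was the local contact of TGFBR3 from Grow to OIS, which was 0.033 with each distance centred on its mean. Among the medians of the 6 windows, distal contact with A from Grow to OIS moved to 0.13 for pairs from 2 to 50 Mb, to 0.12 with centring and to -0.012 for the start bin alone. Distal contact with B from Grow to OIS moved to -0.00032 with centring, to -0.26 with compartments of each map and to -0.34 with the 20% highest and lowest bins. The preference from Grow to OIS moved to 0.31 with compartments of each map, to 0.47 with the 20% highest and lowest bins and to 0.039 for the start bin alone. From Grow to Grow-shA1, contact with A was 0.042 with centring, and contact with B was -0.021 with unlisted pairs as 0 and -0.037 with centring. With 3 bins each side, 4 bins turned from B to A with RAS and 5 with RAS and shA1; for the start bin alone these counts were 1 and 1, and from OIS to OIS-shA1 0. With a component per arm, whose sign was set by the Grow map, 2 bins turned from OIS to OIS-shA1 and 2 from Grow to Grow-shA1. The causes were not tested. Leaving out a replicate was not run, since each condition is 1 map. No paired analysis was possible because the deposited maps are pooled over replicates. The reads behind a score are unknown, so small changes cannot be set against counting error.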
